A study of Mus musculus with 6 samples.

Results

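The fibroblast growth factor (FGF) genes examined here are the ligands Fgf1, Fgf2, Fgf7, Fgf9, Fgf10 and Fgf18 and the receptors Fgfr1, Fgfr2, Fgfr3 and Fgfr4. These 10 genes were taken by gene name from a table of 54532 mouse genes. RNA had been sequenced from immortalized cardiosphere-derived cells, which are cells grown out of adult C57BL/6 heart ventricle epicardium, at passage 30. Both groups carried human telomerase (hTERT) from a CMV-driven lentivirus and came from puromycin-selected cultures of this line, so the comparison concerns 1 cell line and not separate animals. The 3 control libraries came from cells without the drug. The 3 induced libraries came from cells given 10 µM 5-azacytidine (5-aza), which blocks DNA methylation and is used for cardiac induction, for 3 days and then kept for 4 weeks in medium with 2% serum. The study's methods give another medium and a shorter second step, and describe routine growth of the line in a medium richer in serum. Neither the time in culture nor the medium of the control cells that were sequenced is stated, so drug, serum and time in culture cannot be told apart. The question for these genes was which FGF signals and receptors the line expressed before and after induction.

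FGF ligands are secreted proteins that bind receptor tyrosine kinases together with heparan sulfate chains on the cell surface. The activated receptor passes its signal through adaptor proteins to the RAS-MAPK, PI3K-AKT and PLCγ pathways, and the cell answers with transcription factors of the ETS family and with feedback inhibitors such as Sprouty proteins. Alternative exons of Fgfr1, Fgfr2 and Fgfr3 make an epithelial b form and a mesenchymal c form with different ligand preferences. In the developing heart, epicardial Fgf9 and other FGF ligands act on the myocardium below, and Fgf10 acts on epicardium-derived cells. Fgf1 and Fgf2 lack a classical secretion signal, Fgf7 and Fgf10 act mainly on the b form of Fgfr2, and Fgf18 belongs to the subfamily that prefers c forms, that of Fgfr3 among them.

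When reads were divided by gene length, the most abundant ligand of the 6 changed from Fgf7 to Fgf18 in these libraries. By reads alone, Fgf2 stood above Fgf18 in every induced library (597, 753 and 633 against 435, 390 and 439). The length was 6782 bases for Fgf2 and 1187 for Fgf18. The drug given acts on methylation of cytosines in CG dinucleotides. The 250 bases before the RefSeq start of Fgf7 and Fgf18 are therefore given 5′ to 3′ in GRCm38.p6. The strand is that of the gene, and each CG is in capitals. The Fgf7 stretch lies at chr2:126034408-126034657 on the plus strand and the Fgf18 stretch at chr11:33147401-33147650 on the minus strand.
Fgf7: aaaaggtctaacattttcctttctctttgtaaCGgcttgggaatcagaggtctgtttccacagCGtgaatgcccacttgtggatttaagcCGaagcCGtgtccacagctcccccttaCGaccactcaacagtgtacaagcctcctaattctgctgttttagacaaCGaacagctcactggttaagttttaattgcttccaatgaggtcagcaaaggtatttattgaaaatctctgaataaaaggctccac
Fgf18: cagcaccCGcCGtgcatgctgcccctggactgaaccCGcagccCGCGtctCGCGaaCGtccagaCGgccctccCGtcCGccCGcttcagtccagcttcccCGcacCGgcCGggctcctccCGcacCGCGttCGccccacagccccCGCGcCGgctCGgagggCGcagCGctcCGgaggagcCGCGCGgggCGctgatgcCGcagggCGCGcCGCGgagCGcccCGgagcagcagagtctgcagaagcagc

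The Fgf7 stretch held 6 CG dinucleotides at 43.6% G and C, and the Fgf18 stretch held 37 at 77.2%. Counted over the RefSeq promoter window of 300 bases (250 before and 50 after the start), Fgf18 had 47 CG, and 1.44% of 32851 windows of all genes had as many. The window counts were 24 for Fgf2, 20 for Fgfr4, 12 for Fgf9, 11 for Fgf7, 10 for Fgf10 and 4 for Fgfr2, while the 2 windows of Fgfr3 had 26 and 30. Over all windows the median was 7 and the quartiles were 3 and 20, so every member window but that of Fgfr2 was above the median. Of the 10 genes, 8 had a window in the RefSeq table, and Fgf1 and Fgfr1 had no entry. The start used by RefSeq lies inside annotated exons for some of them. All 250 bases before it are exonic in GENCODE M21 for Fgf2 and for both Fgfr3 windows, and 178 are for Fgfr4. The windows of Fgf9, Fgf10 and Fgfr2 lie inside the counted gene, away from its outer 5′ end. They begin at 58072436 and 118714449 and, on the minus strand, 130267058, while the counted genes begin at 58070547, 118669791 and 133123350. Their CG counts therefore do not describe those outer ends. Among members whose RNA was higher in induced cells, the window counts ran from 4 (Fgfr2) to 47 (Fgf18). The 2 ligands that were lower had 10 and 11, and Fgfr4, untested but with fewer reads in every induced library, had 20. For genes with more than 1 window, the window with the most CG was taken. At least as many CG as Fgf18 were found for 334 tested genes, of which 41.6% were higher and 27.5% lower. Over all 10325 tested genes with a window, 33.8% were higher. The share that was lower was not counted for these genes, and over all 14246 tested genes it was 32.2%. A part of CG content in the FGF results was not tested. The letters GGGCGG (a GC box, searched on both strands) occurred in the windows of Fgf2, Fgf10, Fgf18, Fgfr3 and Fgfr4, and in 35.7% of all windows. TATAAA, also searched on both strands, occurred in no window of the 8 genes and in 13.6% of all windows. Methylation itself was not measured in these libraries.

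**Figure D1:**
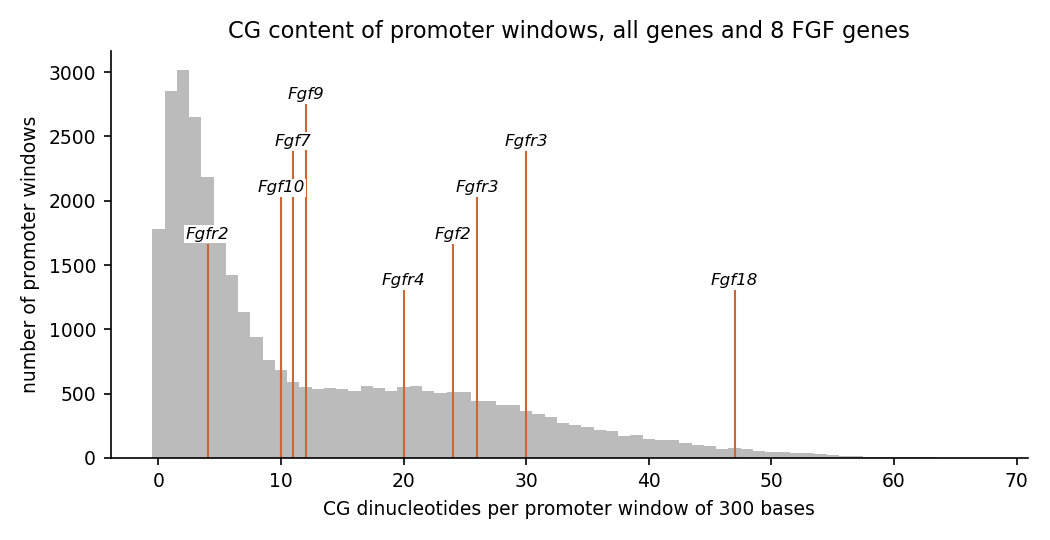
Histogram of CG dinucleotides (x axis, number per promoter window of 300 bases) over 32851 RefSeq windows (y axis, number of windows), with orange lines at the windows of 8 FGF genes (heights of the lines carry no value). Fgf18 stood at 47 in the far right tail, Fgfr2 at 4 lay below the median of 7, and Fgf7 and Fgf10 at 11 and 10 lay close together.

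Libraries held 19041133 to 19823369 counted reads, and at this depth 3 reads, the limit that a count of 0 allows, were worth 0.150 to 0.159 CPM, a unit that sets the reads of a gene against the library total. Levels below are CPM after TMM scaling, as mean ± SD over 3 libraries, and comparisons of levels between genes use FPKM, which also divides by gene length. In the quasi-likelihood test of edgeR (Benjamini-Hochberg adjusted p under 0.05), 64.8% of 14246 tested genes differed between the groups, 32.6% higher and 32.2% lower in induced cells. For 68.6% of them the libraries of one group all lay above those of the other. The labels name separate samples but not separate cultures, so p-values measure only the spread between these samples, which may be technical. In bulk RNA, a change in the number of cells of one type and a change in RNA per cell cannot be told apart. Of the epicardial markers 7 of 10 were higher and 3 lower (summed level 861.2 to 888.6 CPM in control and 3050.6 to 3147.8 CPM in induced libraries), as were 7 and 3 of 10 fibroblast markers. All 10 proliferation genes were lower, with a summed level of 994.7 to 1023.0 CPM in control and 336.4 to 344.7 CPM in induced libraries. Of 12 cardiomyocyte markers, 2 of the 3 tested were higher (Tnnt2, and Myl7, which had 0 reads in control libraries and was tested only through the induced ones), and the summed level went from 13.4 to 16.2 CPM up to 60.5 to 63.9 CPM. The 9 untested cardiomyocyte markers summed to 20 reads in control and 60 in induced libraries. The largest part of this rise was Ryr2, with 1 and 29 summed reads. Myh6 had 0 and 1, Myh7 3 and 4, and Actc1 6 and 4. Of 8 smooth muscle markers 4 were higher and 3 lower, at 1221.8 to 1275.3 CPM in control and 1070.6 to 1119.7 CPM in induced libraries. Leukocyte markers were at 27.2 to 30.1 and 50.9 to 58.7 CPM with Cd68 and Lyz2 higher and Csf1r lower, and the defining markers Ptprc, Itgam and Adgre1 had 0 reads in every library. The epithelial list went from 0.306 to 1.35 CPM up to 30.9 to 36.3 CPM through Krt8, Krt18 and Cdh1 (all tested only through the induced libraries), and Cldn4 had 0 reads in every library. Endothelial markers summed to 1.80 to 2.34 CPM and 1.63 to 3.20 CPM, and Tie1 had 0 reads. Except for the endothelial markers, whose ranges overlapped, these groups of markers moved with the comparison, and their part in the FGF results was not tested.

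Fgf18, a ligand known for its roles in bone, cartilage and lung, rose by a log2 fold change of 4.00 over the 6 libraries, above that of Fgf9 (3.30), although without control replicate 1 Fgf9 stood higher (4.22 against 4.00). The gene lies on chromosome 11 from 33117430 to 33147400 (minus strand, mm10). Control libraries 1, 2 and 3 held 27, 21 and 34 reads of Fgf18, and induced libraries 1, 2 and 3 held 435, 390 and 439. All induced libraries lay far above all control libraries. The level went from 1.38 ± 0.317 CPM to 22.2 ± 1.47 CPM on induction (n = 3 each), a 16.0-fold rise (SE of the log2 fold change 0.14, edgeR adjusted p = 3.75e-14). Of the 14246 tested genes, 187 had a larger rise.

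Fgf2 (basic FGF), a mitogen for many mesenchymal cells, lies on chromosome 3 from 37348346 to 37410108 (plus strand). Its counts were 138, 142 and 207 in control libraries and 597, 753 and 633 in induced libraries. Both groups varied, but the lowest induced library stood well above the highest control library. The level rose from 8.20 ± 1.88 to 34.8 ± 4.19 CPM, 4.24-fold (log2 fold change 2.09, SE 0.12, edgeR adjusted p = 4.36e-11). Of its exon bases, 13.2% are shared with other annotated genes, among them the antisense gene Nudt6 on the opposite strand. The strand setting of the counting is not given in the sources used here. Nudt6 itself had 35, 31 and 39 reads in control and 29, 25 and 31 reads in induced libraries, few beside those of Fgf2 (edgeR adjusted p = 0.413).

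Fgf1 (acidic FGF), a ligand able to bind all the FGF receptors, lies on chromosome 18 from 38838673 to 38929404 (minus strand). It had 41, 31 and 24 reads in control libraries and 84, 79 and 100 in induced libraries. The induced libraries were all above the control libraries. Its level rose from 1.62 ± 0.439 to 4.62 ± 0.559 CPM, 2.85-fold (log2 fold change 1.51, SE 0.22, edgeR adjusted p = 7.41e-06).

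Fgf9, which the epicardium is known to secrete during heart growth, lies on chromosome 14 from 58070547 to 58112720 (plus strand). It was near the detection limit in control libraries, with 4, 1 and 1 reads, and had 23, 20 and 17 reads in induced libraries. Its level went from 0.101 ± 0.0879 CPM to 1.06 ± 0.166 CPM (log2 fold change 3.30, SE 0.52, edgeR adjusted p = 2.28e-05). The size of this change rests on few reads. The summed reads, 6 against 60, gave a ratio of 10.4 with a 95% counting interval of 4.52 to 29.5, and without control replicate 1, the library with 4 reads, the log2 fold change was 4.22.

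Fgf7 (keratinocyte growth factor), a product of mesenchymal cells, fell. It lies on chromosome 2 from 126034658 to 126091185 (plus strand). Control libraries held 714, 733 and 700 reads and induced libraries 238, 227 and 222. The libraries of each group lay close together and the groups were far apart. Its level fell from 36.2 ± 1.14 to 12.1 ± 0.520 CPM, 3.00-fold lower (log2 fold change -1.58, SE 0.08, edgeR adjusted p = 2.47e-12). A larger fall was found for 547 of the 14246 tested genes.

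Fgf10, like Fgf7 a ligand of the b form of Fgfr2, also fell, from a level already low. It lies on chromosome 13 from 118669791 to 118792115 (plus strand). The counts were 13, 17 and 13 in control libraries and 4, 0 and 2 in induced libraries. Its level was 0.725 ± 0.122 CPM before and 0.106 ± 0.106 CPM after induction, where the latter mean was under the limit that 3 reads set (log2 fold change -2.71, SE 0.61, edgeR adjusted p = 0.000728). The summed reads, 43 against 6, gave a 6.88-fold ratio of control over induced with a 95% counting interval of 2.91 to 19.8. The log2 fold change was -3.63 without induced replicate 1 and -2.14 without induced replicate 2.

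**Figure D2:**
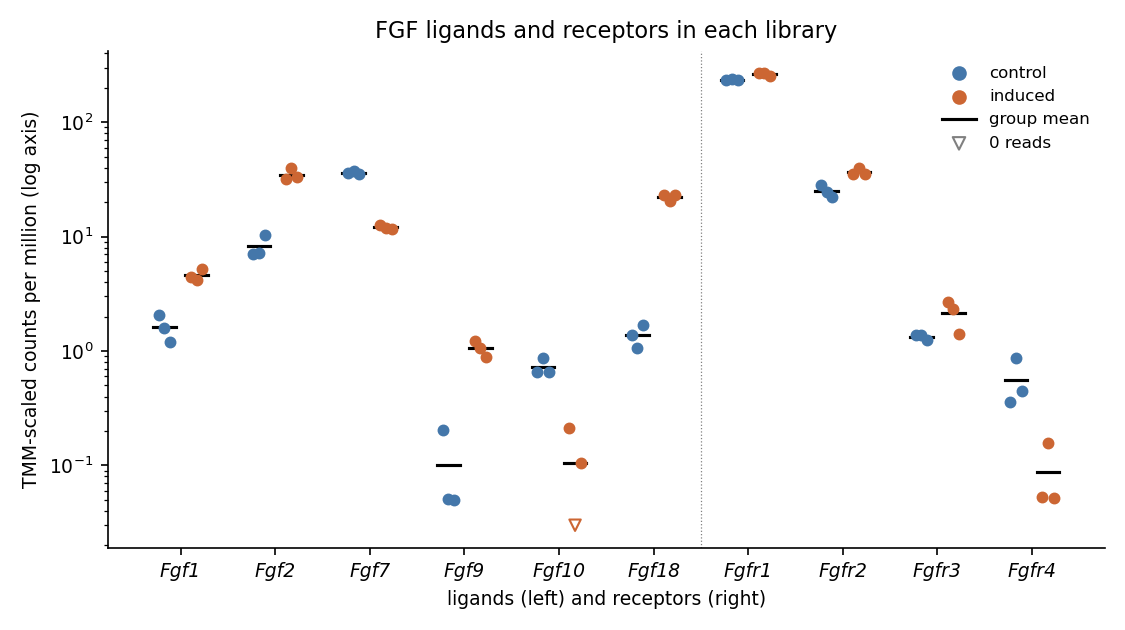
Level of each FGF ligand (left) and receptor (right) in each of 6 libraries, in TMM-scaled CPM on a log axis, with control libraries in blue, induced libraries in orange, group means as black bars and a library with 0 reads as an open triangle. Fgf18 went from 1.38 to 22.2 CPM and Fgf7 from 36.2 to 12.1 CPM between group means, and Fgfr1 had the most reads of the 10 genes in all 6 libraries.

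Of the receptors, Fgfr1 dominated both groups. It is the main FGF receptor of mesenchymal cells and lies on chromosome 8 from 25513654 to 25575718 (plus strand). Control libraries held 4579, 4705 and 4709 reads and induced libraries 5024, 5067 and 4840. The groups did not overlap, but they lay close together, at 235.9 ± 3.87 and 262.4 ± 7.57 CPM. The rise was 1.11-fold (log2 fold change 0.15, SE 0.05, edgeR adjusted p = 0.00666). It was smaller in size than the change of 10926 of the 14246 tested genes. With an offset for gene length the log2 fold change was 0.06 and was not past the threshold (adjusted p = 0.254).

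Fgfr2, whose b form is the receptor for Fgf7 and Fgf10, lies on chromosome 7 from 130162451 to 133123350 (minus strand). It had 561, 484 and 442 reads in control libraries and 661, 752 and 672 in induced libraries. Every induced library was above every control library. The level rose from 25.1 ± 3.16 to 36.6 ± 2.53 CPM, 1.46-fold (log2 fold change 0.55, SE 0.08, edgeR adjusted p = 1.70e-05). Counts were made per gene and do not separate the b and c forms of a receptor. Of the exon bases of Fgfr2, 3.04% are shared with Ctbp2 on the same strand.

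Fgfr3, best known as a brake on cartilage growth, lies on chromosome 5 from 33721674 to 33737068 (plus strand). It had 27, 27 and 25 reads in control libraries and 50, 44 and 27 in induced libraries. Induced replicate 3 lay barely above the control libraries, at 1.42 CPM against a highest control value of 1.38 CPM. The level was 1.33 ± 0.0692 CPM before and 2.13 ± 0.641 CPM after induction (log2 fold change 0.67, SE 0.28, edgeR adjusted p = 0.0399). This call was the least secure of the members. It was lost with DESeq2 (adjusted p = 0.0683) and when any library other than induced replicate 3 was left out (edgeR adjusted p = 0.0750, 0.0764 and 0.0962 without control replicates 1, 2 and 3, and 0.184 and 0.0902 without induced replicates 1 and 2). In addition, 13.9% of its exon bases are shared with a gene on the opposite strand.

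Fgfr4, a receptor prominent in liver, lies on chromosome 13 from 55152640 to 55168759 (plus strand). It had 7, 17 and 9 reads in control libraries and 1, 3 and 1 in induced libraries, too few to pass the filter on low counts, so it was not tested with the other genes. Every induced library had fewer reads than every control library. The summed reads, 33 against 5, gave a 6.33-fold ratio of control over induced with a 95% counting interval of 2.46 to 20.8. With no filter on low counts the log2 fold change was -2.57 (edgeR adjusted p = 0.00172).

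Of the 10 genes, 9 were tested, of which 7 were higher (4 ligands and 3 receptors) and 2 lower (Fgf7 and Fgf10) in induced cells. With 64.8% of all tested genes called, a high count of calls was common to this comparison and is not particular to FGF genes. Fgf9 passed the filter through the induced libraries and Fgf10 through the control libraries, where each was higher, so their passing favoured a difference. The median log2 fold change of the 9 was 0.67, and that of all tested genes was -0.01.

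**Figure D3:**
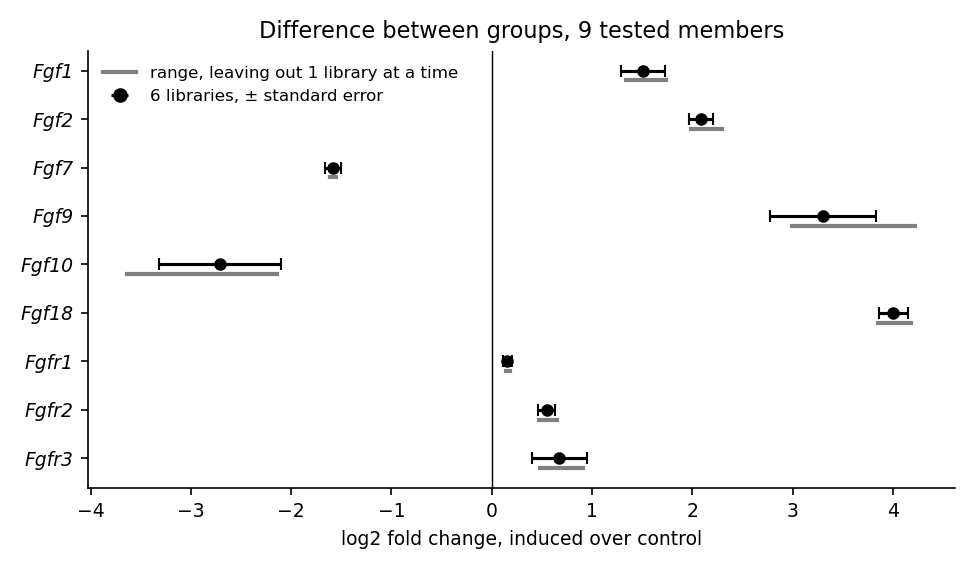
Log2 fold change of induced over control cells (x axis) for the 9 tested FGF genes, with black points and bars for the value and its standard error over 6 libraries and grey bars for the range when 1 library at a time was left out. Fgf18 (4.00), Fgf9 (3.30), Fgf2 (2.09) and Fgf1 (1.51) lay to the right, Fgf7 (-1.58) and Fgf10 (-2.71) to the left, and the 3 receptors between 0.15 and 0.67.

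The order of levels per length changed more among ligands than among receptors. In control cells the FPKM means were 23.7 for Fgfr1, 11.0 for Fgf7, 2.41 for Fgfr2, 1.20 for Fgf2, 1.15 for Fgf18, 0.345 for Fgf1, 0.184 for Fgfr3, 0.156 for Fgf10, 0.156 for Fgfr4 and 0.0216 for Fgf9. Libraries overlapped between the neighbours Fgf2 and Fgf18, Fgfr3 and Fgf10, and Fgf10 and Fgfr4, so those orders were not resolved. In induced cells the means were 26.5 for Fgfr1, 18.7 for Fgf18, 5.13 for Fgf2, 3.71 for Fgf7, 3.54 for Fgfr2, 0.992 for Fgf1, 0.297 for Fgfr3, 0.227 for Fgf9, 0.0247 for Fgfr4 and 0.0230 for Fgf10. Here the unresolved neighbours were Fgf7 and Fgfr2, Fgfr3 and Fgf9, and Fgfr4 and Fgf10. The summed FPKM of the 6 ligands was 13.9 ± 0.132 in control and 28.8 ± 0.819 in induced cells, a ratio of 2.07, and that of the 4 receptors was 26.4 ± 0.340 and 30.4 ± 0.968, a ratio of 1.15.

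Shares of these sums show the exchange directly. Fgf7 made up 79.8%, 82.1% and 76.2% of the summed ligand FPKM in the control libraries and 13.3%, 13.2% and 12.3% in the induced libraries. Fgf18 made up 8.26%, 6.44% and 10.1% in the control libraries and 66.4%, 61.9% and 66.4% in the induced libraries. The share of Fgf2 was 8.60 ± 1.90% in control and 17.9 ± 2.66% in induced cells. None of the other ligands exceeded 4% in any library. The groups did not overlap for Fgf2, Fgf7, Fgf9, Fgf10 and Fgf18, for which a two-sided exact permutation test gave p = 0.1, the smallest it can give with 3 libraries against 3 (0.125 adjusted over the 10 shares). The share of Fgf1, 2.48 ± 0.691% and 3.45 ± 0.361%, gave p = 0.2 (exact permutation test, adjusted 0.222), although its level rose. Among receptors Fgfr1 held 89.6 ± 1.09% in control and 87.3 ± 0.657% in induced cells, and Fgfr2 held 9.11 ± 1.14% and 11.6 ± 0.623% (exact permutation p = 0.1 for each). The share of Fgfr4 went from 0.588 ± 0.278% to 0.0807 ± 0.0539% with the same p, and that of Fgfr3 was 0.698 ± 0.0296% and 0.972 ± 0.271% (exact permutation p = 0.3).

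**Figure D4:**
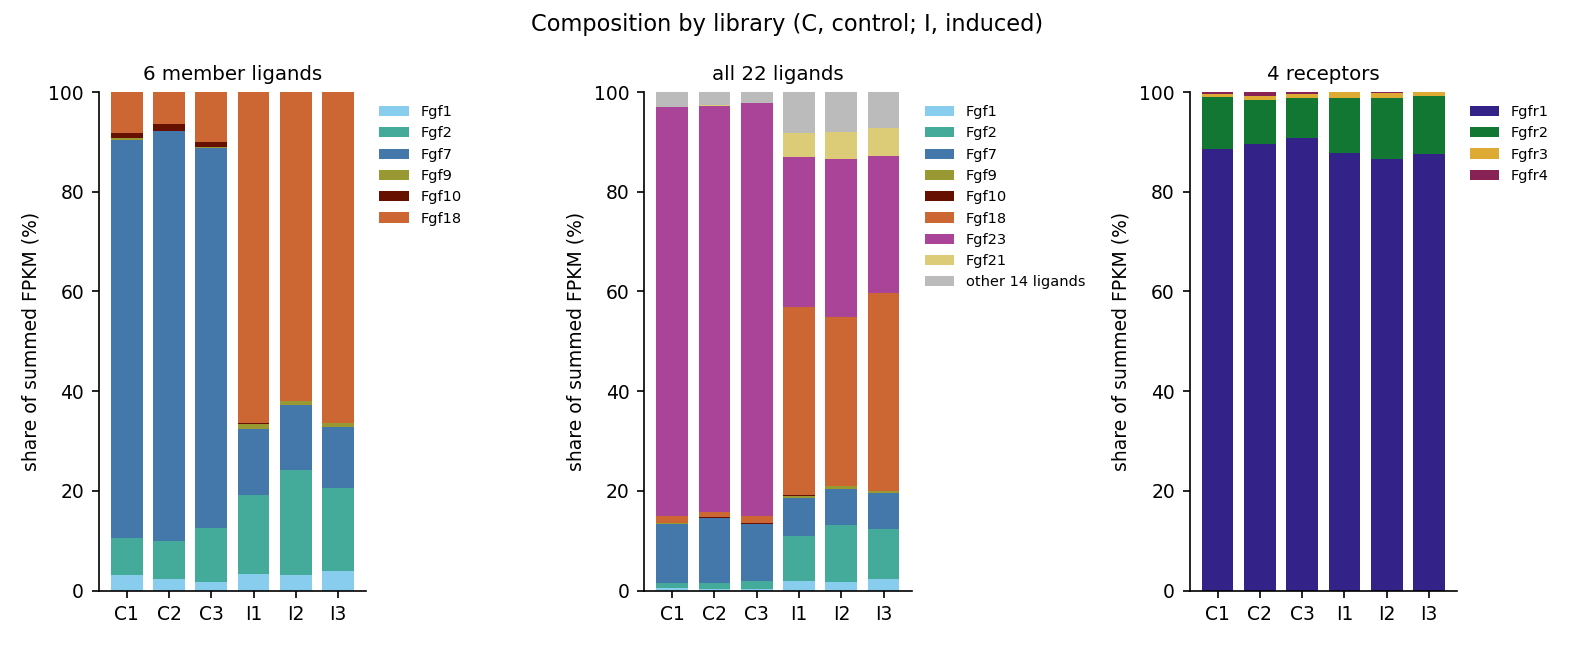
Share of summed FPKM (y axis, percent) in each control (C1 to C3) and induced (I1 to I3) library. The panels hold the 6 member ligands (left), all 22 genes of the wider ligand sum with the intracellular Fgf11 (middle) and the 4 receptors (right). Fgf7 filled 79.4% of the member ligand sum on average in control and Fgf18 64.9% in induced libraries, Fgf23 filled 82.0% of the sum over all ligands in control libraries, and Fgfr1 filled over 86% of the receptor sum in every library.

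The other FGF ligands held 16 genes, of which 4 were tested (2 higher, 1 lower, 1 not past the threshold, median log2 fold change 1.22) and 5 had no read in any library. Over all tested genes 32.6% were higher and 32.2% lower. Fgf23, a hormone of phosphate balance made chiefly by bone cells, was more abundant per length than any member ligand in control cells, at 74.9 ± 3.13 FPKM. It had 2754, 2568 and 2814 reads in control libraries and 527, 555 and 467 in induced libraries, and its level fell 5.04-fold from 137.1 ± 5.47 to 27.2 ± 2.45 CPM (adjusted p = 1.36e-15 by edgeR, log2 fold change -2.33). Its share of the FPKM summed over all 22 ligands was 82.0 ± 0.623% in control and 29.7 ± 2.04% in induced cells. The 22 genes of this sum include the intracellular Fgf11, which is not a secreted ligand, at 2.15% in control and 4.59% in induced cells. This sum was taken after the level of Fgf23 had been seen. On it, Fgf18 had 1.26 ± 0.256% and 37.1 ± 2.88%, Fgf7 12.1 ± 0.774% and 7.37 ± 0.171%, Fgf2 1.31 ± 0.279% and 10.2 ± 1.21%, Fgf1 0.378 ± 0.101% and 1.98 ± 0.290%, and the sum itself was 91.3 ± 3.19 and 50.3 ± 1.33 FPKM, so the ratio of summed ligand RNA turned direction when Fgf23 was counted. Fgf21, a metabolic hormone, had 2, 4 and 0 reads in control libraries and 45, 50 and 49 in induced libraries (adjusted p = 8.53e-08 by edgeR, log2 fold change 4.56, and 5.48 without control replicate 2). Fgf8, an early embryonic ligand, rose from 0.370 ± 0.124 to 1.74 ± 0.285 CPM (adjusted p = 2.52e-05 by edgeR, log2 fold change 2.21). Fgf21 and Fgf8 passed the filter on low counts only through the induced libraries, where each was higher, so the 2 calls of higher and the list median do not support a rise of the list. Fgf11, an intracellular family member, was at 6.02 ± 1.17 and 7.05 ± 0.603 CPM (edgeR adjusted p = 0.196, and 0.0402 without control replicate 1). The 12 untested ligands summed to 35 reads in control and 49 in induced libraries. Without control replicate 1, or without any 1 induced replicate, 1 more ligand passed the filter and the list median was 0.17 to 0.39.

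Co-receptors and carriers of FGF ligands changed in both directions. Of 16 genes 11 were tested, 7 higher and 2 lower, with a median log2 fold change of 0.60. Over all tested genes 32.6% were higher and 32.2% lower. Gpc3, a heparan sulfate proteoglycan of the glypican family, rose from 18.0 ± 1.24 to 73.1 ± 5.55 CPM (adjusted p = 2.19e-14 by edgeR, log2 fold change 2.02). Among the syndecans, transmembrane heparan sulfate proteoglycans, Sdc2 rose 1.76-fold (133.7 ± 3.00 to 234.9 ± 8.20 CPM), while Sdc3 fell 1.80-fold (477.8 ± 5.02 to 265.1 ± 7.52 CPM) and Sdc1 fell 1.89-fold (206.0 ± 6.63 to 109.2 ± 7.60 CPM). Exons of Sdc3 share 7.73% of their bases with genes of the opposite strand. Fgfrl1, a receptor-like protein without a kinase domain, rose from 31.8 to 66.3 CPM between group means (log2 fold change 1.06). The klotho co-receptors of the hormone-like ligands Fgf21 and Fgf23 were hardly detected, with 0 and 1 reads for Kl and 2 and 3 reads for Klb summed over the control and the induced libraries. The last 3 genes were named after their values were seen.

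Of 18 genes that make or edit heparan sulfate 14 were tested, with 7 higher, 2 lower and a median log2 fold change of 0.11. This share of calls was close to the 64.8% of all tested genes, so it is not particular to the list. With an offset for gene length 7 were higher and 6 lower. Sulf1, an extracellular enzyme that removes 6-O-sulfate groups, rose 3.62-fold from 68.0 ± 1.10 to 245.9 ± 11.0 CPM (adjusted p = 1.23e-15 by edgeR, log2 fold change 1.85). The sulfotransferases Hs2st1 and Hs6st1 rose 1.79-fold and 1.46-fold, to 118.4 ± 5.03 and 64.2 ± 2.19 CPM. Extl3, which starts the chain, rose 1.41-fold to 151.9 ± 2.56 CPM. The lower genes were Sulf2, the other enzyme that removes 6-O-sulfate, from 95.6 ± 2.94 to 79.6 ± 3.8 CPM (edgeR adjusted p = 0.000353), and Ndst2, a sulfotransferase of the growing chain, from 47.2 ± 1.33 to 41.2 ± 1.24 CPM (edgeR adjusted p = 0.00512). These 2 were named after their values were seen. Exons of Hs6st1 share 8.07% of their bases with a gene of the opposite strand.

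All 25 genes of the signal relay below the receptors were tested, and 14 of them did not pass the threshold. Over all tested genes 64.8% passed it, a larger share than in this list. In the list 7 were higher and 4 lower, and the median log2 fold change was 0.08 (-0.00085 with an offset for gene length). The split depended on the setting, with 5 higher and 6 lower under that offset, 5 and 5 with library totals alone, 10 and 4 with median-ratio size factors, and 11 and 4 without induced replicate 2. Braf, a RAF kinase, rose 1.91-fold (29.1 ± 3.38 to 55.7 ± 5.41 CPM), Pik3r1, a regulatory subunit of PI3K, 1.71-fold (75.4 ± 4.29 to 128.9 ± 13.3 CPM) and the adaptor Gab1 1.27-fold (49.5 ± 1.2 to 62.9 ± 2.84 CPM). Akt1, the kinase downstream of PI3K, fell 1.24-fold (413.2 ± 8.57 to 332.1 ± 11.4 CPM). The edgeR adjusted p-values of these 4 genes lay between 9.61e-09 and 2.24e-05.

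All 24 feedback inhibitors and target genes were tested, with 7 higher, 13 lower and a median log2 fold change of -0.27. Over all tested genes 32.6% were higher and 32.2% lower. Etv4, an ETS transcription factor, fell 7.81-fold from 18.0 ± 1.29 to 2.30 ± 0.372 CPM (adjusted p = 1.08e-12 by edgeR, log2 fold change -2.96). The AP-1 subunit Fosl1 fell 4.51-fold (41.0 ± 3.20 to 9.10 ± 0.610 CPM), Myc, a driver of cell growth, fell 3.13-fold (87.4 ± 2.52 to 27.9 ± 1.34 CPM), and Dusp4, a nuclear MAPK phosphatase, fell 2.34-fold (81.4 ± 2.39 to 34.8 ± 1.10 CPM). Exons of Fosl1 share 57.2% of their bases with Ccdc85b on the opposite strand, so its counts are uncertain. The list did not move one way. Etv1 and Etv5, the other ETS factors of the group, and the phosphatase Dusp5 were also lower (log2 fold changes -2.30, -0.43 and -1.48), whereas the Sprouty genes Spry1 and Spry4 and the ERK phosphatase Dusp6 were higher (0.93, 0.55 and 0.55) and Spry2 was lower (-0.35). These last 7 genes were named after their values were seen. Many of the genes in this list also answer to other growth factors and to the cell cycle, and the 10 proliferation genes were all lower in the same libraries, with a median log2 fold change of -1.81; their part was not tested.

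Of the 4 regulators that set the choice between the b and c exons of the receptors, 3 were tested and all were lower. Their effect on exon choice was not tested, since counts per gene do not separate the b and c forms. Over all tested genes 32.2% were lower. Esrp2, an epithelial splicing factor favouring b exons, fell from 13.3 ± 0.530 to 7.31 ± 0.229 CPM (adjusted p = 9.28e-07 by edgeR, log2 fold change -0.86). Ptbp1 fell from 343.9 ± 4.08 to 256.8 ± 6.26 CPM and Rbfox2 from 273.1 ± 7.34 to 233.0 ± 7.0 CPM (log2 fold changes -0.42 and -0.23). Esrp1 had 1 read in all 6 libraries together. Exons of Ptbp1 share 20.7% and those of Esrp2 7.79% of their bases with genes of the opposite strand.

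**Figure D5:**
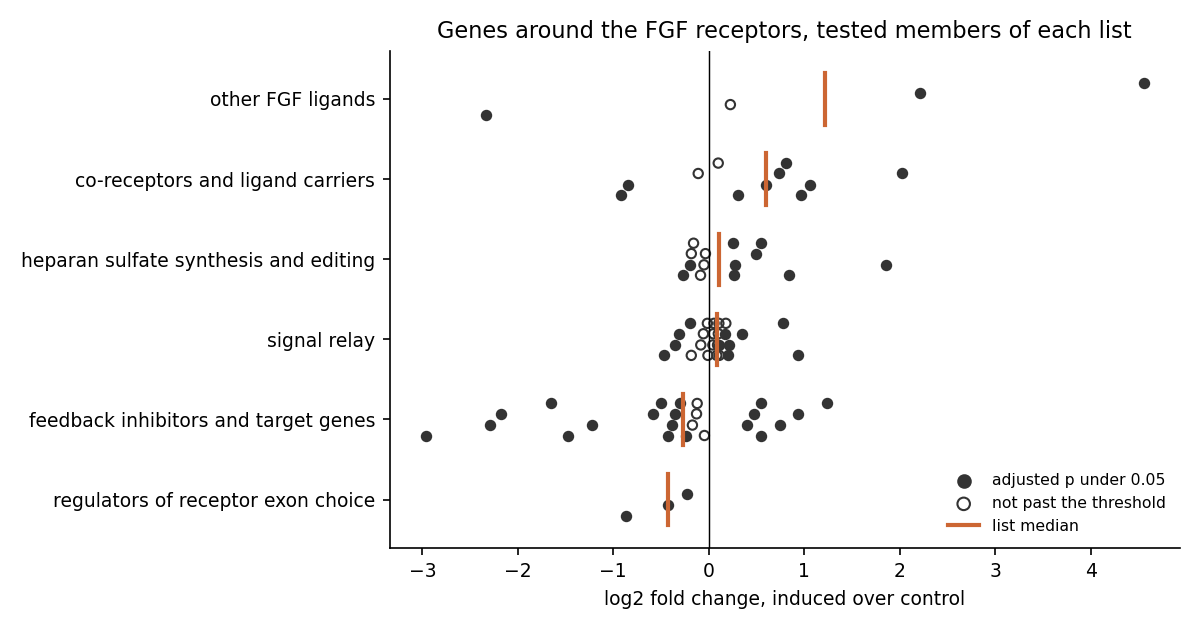
Log2 fold change of induced over control cells (x axis) for the tested genes of 6 lists around the FGF receptors (y axis), with filled points past an adjusted p of 0.05, open points not past it and an orange bar at the list median. The signal relay clustered near its median of 0.08, while feedback inhibitors and target genes reached from -2.96 to 1.24.

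For Fgf18 and Fgfr1, the ligand and the receptor with the highest mean FPKM among the 10 genes, the genes most like them over the 6 libraries were listed by Pearson correlation of log2 CPM, which is a description since the 2 groups fix most of it. Nearest to Fgf18 were Tnnt2 (cardiac troponin T), the endogenous retroviral gene Erv3 and Synpo2, an actin-binding protein, all with r of 1.00, and 2587 tested genes had r of at least 0.95. Tnnt2 went from 13.1 to 58.2 CPM between group means. Nearest to Fgfr1 were Rtn4ip1 (r = 0.995), Rubcn (r = 0.994) and Sorcs2 (r = 0.994), and 602 genes had r of at least 0.95. These 6 libraries share their groups and their depth was similar.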

How the data were processed

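RNA-seq libraries of 3 control and 3 induced samples were compared. The authors deposited raw read counts per gene and FPKM values in 1 table. Per the labels' processing notes, HISAT2 2.0.5, featureCounts 1.5.0-p3 and DESeq2 1.16.1 were used on mm10, while the study's methods name DESeq with fewer replicates. The library kit does not mark strand. In each library the deposited FPKM equals the count divided by gene length and 1 depth (within 1% for all genes checked). Genes with few reads, Fgf9, Fgf10 and Fgfr4 among them, were left out of this check. Gene lengths are those deposited by the authors. The authors' columns of fold changes and p-values, and their tables of enriched terms, were not used.

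Counts were analysed with edgeR 4.0.16 in R 4.3.3. The filterByExpr function (a count of at least 10, a total of at least 15) left 14246 genes, which were scaled by TMM and tested by the two-sided quasi-likelihood test with Benjamini-Hochberg adjustment over all of them at 0.05 (prior count 0.125). Shares were compared by exact permutation tests. Ratios of summed reads carry 95% exact binomial intervals, which cover counting error only. Exon overlap was taken from GENCODE M21, in which 54409 genes of the table were found, 98.3% with the same start and end. Promoter sequences are from RefSeq (GRCm38.p6). Libraries of 1 group differed beyond sampling noise in all pairs, so none was merged. Libraries with the same number did not deviate together (r = -0.00, -0.02 and 0.03), so they were not paired. Scripts were tested on simulated data.

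The 10 genes and the 6 pathway and 8 marker lists were chosen with earlier results of these data known. Named pathway genes are up to 4 tested genes per list with the smallest p. Alternatives were DESeq2 1.42.0, limma 3.58.1 on log2(FPKM + 1) and log2(FPKM + 0.1), other scalings and filters, a replicate block, an adjusted p of 0.01, an offset for gene length (span 0.4) and leaving out each library.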

Additional observations from a re-analysis of the deposited data

How the results depend on the processing

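Of the 10 FGF genes, 7 to 10 were called under the alternatives (10 with no filter, 7 with the gene length offset and 7 with the stricter filter, which removed Fgf9 and Fgf10), beside 7783 to 9765 of all genes. The genes tested differed between settings. With no filter 9765 of 25705 genes were called, a smaller share than the 64.8% of the main test. The stricter filter gave 8845 of 13163 and the gene length offset 9559 of 14246. No FGF gene changed direction, and Fgf1, Fgf2, Fgf7, Fgf9, Fgf10, Fgf18 and Fgfr2 kept their calls wherever they were tested. With the replicate block 9 FGF genes and 9063 of all 14246 tested genes were called, and no call among FGF genes was lost. Fgfr1 was not past the threshold with the gene length offset (log2 fold change 0.059). Fgfr3 was not past it with DESeq2 (0.69), library totals alone (0.64), limma on log2(FPKM + 1) (0.13) and log2(FPKM + 0.1) (0.46), an adjusted p of 0.01 (0.67) or the gene length offset (0.59), and leaving out 1 library gave 0.49 to 0.91. The cause was not tested. List medians moved as follows. The other FGF ligands had 1.67 with no filter and 0.51 on log2(FPKM + 1), and 0.17 to 1.30 when 1 library was left out; without control replicate 1 or any 1 induced replicate 1 more ligand passed the filter (0.39, 0.17, 0.23 and 0.30). Co-receptors had 0.57 with library totals, 0.62 with no filter and 0.49 with the length offset. Heparan sulfate genes had 0.26 with no filter and 0.032 with the length offset. The signal relay had 0.047 with library totals and -0.00085 with the length offset, a change of sign. Feedback and target genes had -0.21 on log2(FPKM + 1) and -0.34 with the length offset. Exon choice regulators had -0.46 with library totals and -0.32 with no filter. The median of all tested genes was itself -0.04 with library totals and -0.07 with the length offset. The sum over all 22 ligand genes, the intracellular Fgf11 included, was chosen after seeing the data. On it, the differences of shares in percentage points were 1.60 for Fgf1, 8.88 for Fgf2, -4.74 for Fgf7, 0.426 for Fgf9, -0.126 for Fgf10 and 35.9 for Fgf18. Among named pathway genes, Fgf11 passed the threshold without control replicate 1 (0.39). Depth limits Fgf9, Fgf10, Fgfr4 and Fgf21, which had 6 or fewer summed reads in 1 group.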
